A study of Mus musculus with 8 samples.

Results

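A pair of genes that lie next to each other on mouse chromosome 12, named A230065H16Rik and 1200009I06Rik on the array, were examined in common myeloid progenitors (CMPs) of young and old mice. All non-control probes that carried these names were taken, which gave 2 probes, 1 per gene, of 55681 non-control probes and 34797 gene names on the array. The pair had been picked because its signals were higher in old mice, so the difference between the ages at these probes is given as a description and without a test. The 11 other probes within the window of chromosome 12 from 112.4 to 112.9 Mb (mouse build mm9) were chosen by position only and were tested, to see how far along the chromosome a rise extended.

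CMPs are progenitors of the bone marrow from which granulocytes, monocytes, megakaryocytes and red cells descend. They had been sorted as cells negative for lineage markers and Sca-1, positive for cKit and CD34 and low for FcγR, from untreated wildtype C57BL/6J mice. The labels give an age of 2 to 3 months for young and 22 to 24 months for old mice, whereas 3 to 4 and 22 to 26 months are stated for the series as a whole. RNA was hybridized with 1 dye to 8 arrays, namely young replicates 3 to 6 and old replicates 2 to 5. The paper counts fewer mice per age than there are arrays and the labels do not tie arrays to animals, so all 8 arrays were kept, and the p-values below measure only the spread between these samples. Each of 2 slides held 2 young and 2 old arrays.

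Both genes now have other names. By its accession, A230065H16Rik is Lbhd2 in RefSeq, a gene named for a domain it shares with LBH, a regulator of transcription in the developing limb and heart, and little is known of what its protein does. By the same route, 1200009I06Rik is Exoc3l4, which is related to Exoc3, a subunit of the exocyst. The exocyst is a protein complex that tethers secretory vesicles to the plasma membrane before they fuse, and several small GTPases steer it. Tnfaip2, a relative of Exoc3 that takes part in forming membrane nanotubes, is the next gene on the far side of 1200009I06Rik. Of the 10 gene names in the window, 8 matched RefSeq by accession and 1 by name, and Gm10425 had no match.

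RefSeq places 14 genes from Traf3 to Mark3, of which 9 had a probe in the window, and 0 genes between Lbhd2 and Exoc3l4. The A230065H16Rik probe lies at chr12:112650200-112650259 and the 1200009I06Rik probe at chr12:112669333-112669392, both on the plus strand of mm9 and 19.073 kb apart. Each probe of 60 bases held AATAAA, the commonest polyadenylation signal, which 10.1% of all non-control probes hold. It is shown because the probes share it, as a run of 30 bases from base 30 of the first probe and base 26 of the second, 5′ to 3′, with AATAAA in capitals.
A230065H16Rik probe: gcttgaagcagaAATAAAggcatccttcct
1200009I06Rik probe: gaggattctaaaAATAAAtgtgaattaaaa

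The annotated start sites of the pair are 10.621 kb apart on the same strand (RefSeq, GRCm38.p6). The 250 bases before each start are shown because both genes had higher signals in old CMPs, with the letters of any motif found in capitals. They cover chr12:111406559-111406808 for Lbhd2 and chr12:111417180-111417429 for Exoc3l4, plus strand, and a second Exoc3l4 start lies 15 bases further downstream.
Lbhd2: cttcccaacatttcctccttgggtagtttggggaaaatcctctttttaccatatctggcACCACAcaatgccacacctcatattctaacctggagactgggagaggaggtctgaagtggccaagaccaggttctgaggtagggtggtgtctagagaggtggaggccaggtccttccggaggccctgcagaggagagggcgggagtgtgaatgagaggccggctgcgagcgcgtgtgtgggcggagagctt
Exoc3l4: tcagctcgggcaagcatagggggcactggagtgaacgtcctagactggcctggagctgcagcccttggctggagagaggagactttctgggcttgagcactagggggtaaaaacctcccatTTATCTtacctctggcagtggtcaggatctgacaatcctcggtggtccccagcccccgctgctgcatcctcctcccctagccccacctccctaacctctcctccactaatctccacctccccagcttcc

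The GC content of these stretches was 56.8% for Lbhd2 and 59.6% for Exoc3l4, beside a median of 52.4% over 32851 RefSeq promoters of the same length. Both strands were searched for 8 motifs. The stretch before Lbhd2 held 1 RUNX motif (TGTGGT) on the minus strand, read as ACCACA on the plus strand 191 to 186 bases before the start, and 14% of all promoters hold it. The stretch before Exoc3l4 held 1 GATA motif (AGATAA) on the minus strand, read as TTATCT on the plus strand 129 to 124 bases before the start, and 9.99% of all promoters hold it. The 2 stretches had no motif in common. The letters of the TATA box (TATAAA), ETS (AGGAAG), the E-box (CACGTG) and STAT (TTCNNNGAA) were found in neither, and 12.4%, 29.5%, 6.02% and 7.02% of all promoters hold them. The longer NF-κB and interferon response motifs were not found either and are in 0.14% and 2.98% of all promoters. With 1 match in each stretch, no overlap of motifs was possible. A match of letters is a description and not a binding site.

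The signal of A230065H16Rik was near background in young CMPs and above it in old CMPs. On the linear scale of the scanner it read 7.14, 13.7, 9.15 and 13.6 on young arrays 3 to 6, where the dimmest probe that passed the mark for being well above background read between 11.6 and 16.8. It read 87.1, 46.3, 38.6 and 54.7 on old arrays 2 to 5. By the scanner software's own mark, the probe was well above background on 0 of 4 young and 4 of 4 old arrays.

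After each array was set to its 75th percentile on the log2 scale, the level of A230065H16Rik was -5.87, -5.37, -5.27 and -5.24 on young arrays 3 to 6. On old arrays 2 to 5 it was -2.57, -2.94, -2.91 and -2.95. The groups did not overlap, young array 3 was the dimmest and old array 2 the brightest. Young arrays had a mean of -5.44 ± 0.29 (SD, n = 4) and old arrays one of -2.84 ± 0.18 (SD, n = 4), a difference of 2.59 on the log2 scale (standard error of 0.20 from the fit across all probes). Because no young array measured the probe above background, the change is a lower bound, at least 4.29-fold higher in old CMPs. For the bound, a young value below the dimmest passing probe of its array was raised to that probe's signal, and the measured means give 6.03-fold. Under normexp background correction, which adds an offset to dim signals, the difference was 0.95 and the bound 1.83-fold.

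The signal of 1200009I06Rik was well above background on all 8 arrays. It read 147.5, 178.2, 121.7 and 238.8 on young arrays 3 to 6 and 442.8, 292.7, 273.4 and 473.7 on old arrays 2 to 5. Its log2 level was -1.50, -1.67, -1.53 and -1.10 on the young arrays and -0.23, -0.28, -0.08 and 0.16 on the old arrays. Young array 6 came nearest to the old arrays, and the groups did not overlap. Young arrays had a mean of -1.45 ± 0.24 (SD, n = 4) and old arrays one of -0.11 ± 0.20 (SD, n = 4), a difference of 1.34 on the log2 scale (standard error of 0.19) or 2.54-fold. In RNA from a sorted population, more cells that hold a transcript and more transcript per cell cannot be told apart.

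**Figure D1:**
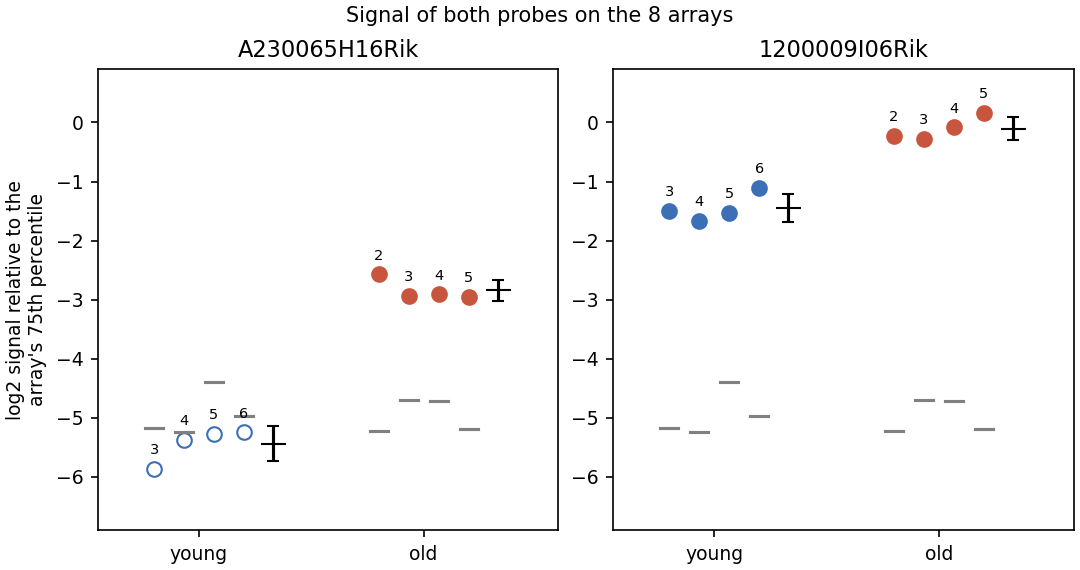
Log2 signal of the A230065H16Rik and 1200009I06Rik probes, relative to each array's 75th percentile (y axis), on 4 young and 4 old arrays (x axis), with replicate numbers beside the points. Open circles are not well above background, grey dashes mark the dimmest probe of each array that was well above background, and black bars are the mean ± SD, -5.44 and -2.84 for the first gene and -1.45 and -0.11 for the second; old arrays sit above young arrays in both panels.

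The slides, each with 2 young and 2 old arrays, were also read separately, as a description. The measured difference of 1200009I06Rik was 1.43 on slide 1 and 1.26 on slide 2 on the log2 scale. That of A230065H16Rik was 2.88 and 2.31, against young values that were not above background. A probe was called when the adjusted p of limma was under 0.05 and the change at least 1.5-fold. By this rule both probes were called higher, as were 0.158% of the 33472 probes tested. Under the alternatives given below, which include leaving out each array, the call held in 19 of 21 for A230065H16Rik. Its probe entered the test only through its 4 old arrays, and with a filter on all 8 arrays it was not tested. For 1200009I06Rik the call held in 11 of 22. No meaning is read from these calls, since the pair was chosen on the same contrast. Likewise, all 4 old arrays were above all 4 young arrays at both probes and at 2.85% of all probes tested. With each array left out in turn, the measured difference lay between 2.45 and 2.66 at A230065H16Rik and between 1.26 and 1.46 at 1200009I06Rik.

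No rise was detected at the other genes of the window. Of the 11 other probes, from 8 genes, 10 probes of 7 genes were bright enough to be tested, 5 with a difference above and 5 below 0. Their median difference was -0.03 on the log2 scale, beside -0.02 over all probes tested. By limma 0 of the 10 were called, beside 0.191% of all probes tested in either direction, and 0 had an unadjusted p under 0.05, beside 6.34%. In 0 of them were the groups without overlap, beside 4.42% of all probes. The adjusted p was 0.998 for each, and the exact permutation test, which can go no lower than 0.0286 (two-sided), gave p between 0.371 and 0.886.

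On the upstream side of the pair lie Cdc42bpb, Amn and Traf3. Cdc42bpb, a kinase that acts downstream of the GTPase Cdc42, differed by 0.09 (95% interval from -0.47 to 0.66) at a probe 118 kb before that of A230065H16Rik. Amn, which with cubilin takes up vitamin B12 in the gut, differed by -0.16 (-0.67 to 0.35). The Amn probe was near background, at 19.7 to 27.3 on young and 14.3 to 19.8 on old arrays on the linear scale. The dimmest passing probes read 11.6 to 16.8 and 11.0 to 13.8 there. Traf3, an adaptor of receptors of the TNF family, differed by -0.07 (-0.54 to 0.40) at the far end of this side. All values are old minus young on the log2 scale, and on each of these probes the young and old arrays overlapped.

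Between the probes of the pair lies that of Gm10425, a name without a match in RefSeq, on the opposite strand and 2.589 kb before the 1200009I06Rik probe. Its log2 level was -3.03, -3.34, -3.19 and -3.34 on young arrays 3 to 6 and -4.85, -4.46, -2.72 and -3.34 on old arrays 2 to 5. Old arrays 2 and 3 were below all young arrays, and old array 4 was above them. The difference was -0.61 (95% interval from -1.54 to 0.32), with -0.60 and -0.63 on the 2 slides. It moved with single arrays, to -0.28 without old array 2, -0.41 without old array 3 and -0.98 without old array 4. It was -0.07 with normexp correction, -0.32 with the replicate number as a block and -1.0 with array weights. No rise was detected at this probe.

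On the downstream side, the next gene is Tnfaip2, which is related to 1200009I06Rik in sequence family as well as in place. Its 2 probes, 23.427 and 23.566 kb beyond the 1200009I06Rik probe, differed by 0.22 (-0.52 to 0.95) and 0.08 (-0.40 to 0.56). Gm266 was well above background on 2 young and 1 old arrays and was not tested, and its measured difference was 0.23. The 2 probes of Eif5, a factor that promotes GTP hydrolysis at the start of translation, differed by 0.12 (-0.48 to 0.73) and 0.02 (-0.54 to 0.59). Those of Mark3, a kinase of microtubule-associated proteins, differed by -0.12 (-0.57 to 0.32) and -0.16 (-0.59 to 0.28).

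The widest of these limits on a rise was that of the first Tnfaip2 probe, whose interval reached 1.94-fold, and the narrowest was 1.21-fold at a Mark3 probe. A rise within these limits could not be told from no change with 4 arrays per age. When the window was widened by 1 Mb on each side, 81 of 109 other probes were tested, with a median difference of 0.05. None of the 81 was called by limma, beside 0.191% of all probes tested. Of the 81, 3 had an unadjusted p under 0.05 by limma, beside 6.34%. These were BC048943 (1.22), 5033406O09Rik (0.61) and a probe of Stk30 (-1.15, with -0.59 at its other probe). Of the 81, 1 had groups that did not overlap, beside 4.42%. This was BC048943, which was well above background on 1 young and 4 old arrays.

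**Figure D2:**
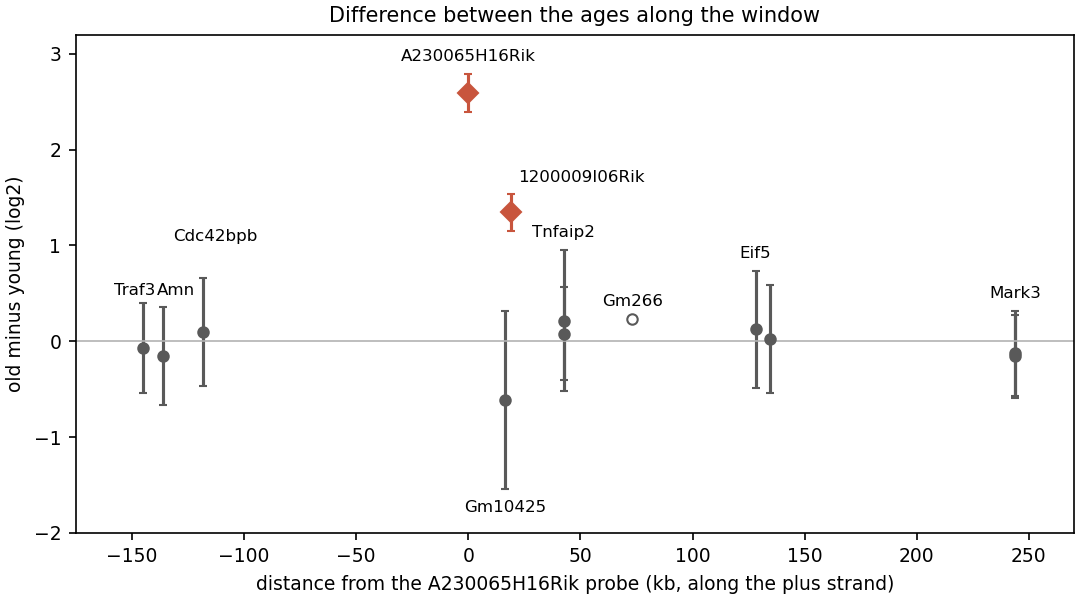
Old minus young difference on the log2 scale (y axis) at the 13 probes of the window against their distance from the A230065H16Rik probe in kb (x axis). Red diamonds are A230065H16Rik (2.59) and 1200009I06Rik (1.34) with standard errors, grey points are the other tested probes with 95% intervals, all of which span 0, and the open circle is Gm266, which was not tested.

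Since 1200009I06Rik belongs to the wider exocyst family, the other genes of this family were read on the same arrays, each by its brightest probe. Of 18 other genes on the array, all tested, 12 were above and 6 below 0, beside 15649 above 0 of all 33472 probes tested. Their median difference was 0.09 on the log2 scale, beside -0.02 over all probes. By limma none was called, beside 0.191% of all probes tested. An unadjusted p under 0.05 was found for 2 of 18, beside 6.34%. In 3 of 18 all old arrays were above all young arrays, beside 2.85% of all probes tested. The 9 subunits of the complex itself, Exoc1 to Exoc8 with Exoc6b, differed by -0.34 to 0.26, and at 0 of these brightest probes were the ages apart. A dimmer probe of Exoc4 had old arrays (-0.56 to -0.32) above young arrays (-0.59 to -0.58), with a difference of 0.13 and an adjusted p of 0.998 by limma. The 6 GTPases that bind it, Rala, Ralb, Arf6, Rab8a, Rab11a and Cdc42, differed by -0.20 to 0.33.

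The 3 genes whose arrays did not overlap at the brightest probe were Exoc3l, Exoc3l2 and Rab11a, all with higher values in old mice. Exoc3l, a relative of Exoc3 on chromosome 8, had log2 levels of -2.49, -1.84, -1.07 and -1.75 on young arrays 3 to 6 and of -0.37, -0.40, -0.70 and -0.33 on old arrays 2 to 5. Its difference was 1.34 (95% interval from 0.71 to 1.97), with an adjusted p of 0.132 by limma. Young array 5 lay nearest to the old arrays.

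Exoc3l2, a relative on chromosome 7, differed by 0.89 (0.40 to 1.38) with an adjusted p of 0.22 by limma at its brighter probe and by 0.50 with an adjusted p of 0.457 at the other. Both of its probes had old arrays above young arrays. Rab11a, a GTPase of recycling endosomes, differed by 0.33 with an adjusted p of 0.863. Tnfaip2, the relative next to 1200009I06Rik, is described above and did not pass the test at either probe. None of these genes passed the threshold for a call.

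**Figure D3:**
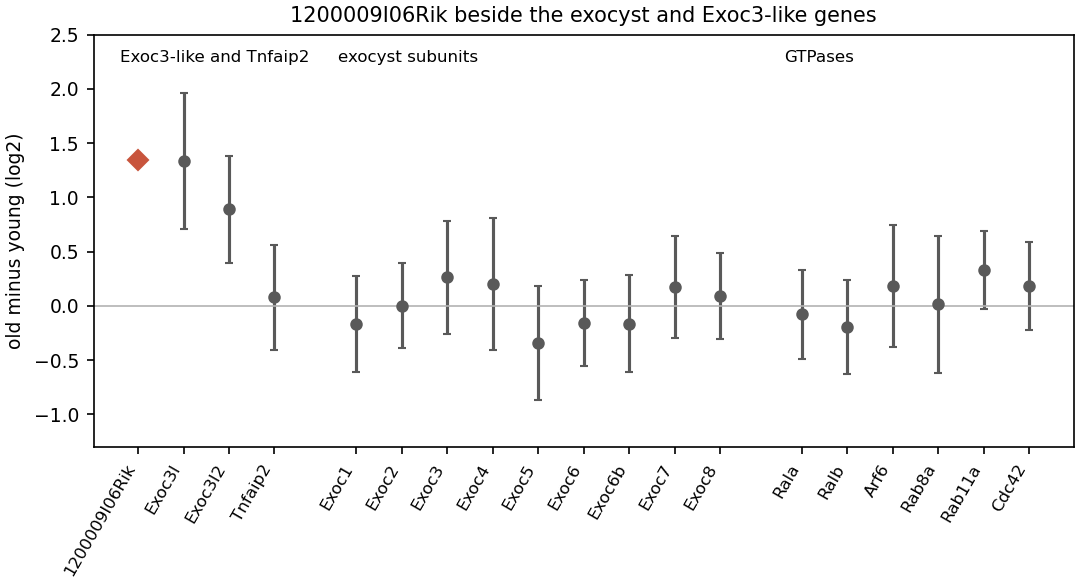
Old minus young difference on the log2 scale for 1200009I06Rik and the other exocyst family genes, each by its brightest probe. The other genes have 95% intervals, and 1200009I06Rik (red diamond) is drawn without one. Exoc3l (1.34) and Exoc3l2 (0.89) have intervals above 0, and the 9 core subunits span -0.34 to 0.26.

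The probes whose pattern over the 8 arrays was most like that of each member were found by the root mean square difference of log2 values, each probe centred on its own mean, over 33431 other probes. For 1200009I06Rik these were Alox12, the lipoxygenase of platelets (0.0803), Slc24a5, an ion exchanger (0.130), Ehd3, an endocytic recycling protein (0.153), Fhdc1, a formin (0.157), and Gng11, a G protein subunit (0.185). These probes differed between the ages by 1.18 to 1.44 on the log2 scale and are on other chromosomes than the pair. When values were scaled to each probe's SD, Alox12 and Slc24a5 still ranked 1 and 2.

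For A230065H16Rik the most alike were a probe for an unnamed RNA on chromosome 1 (0.302), one for the transcript ENSMUST00000096862 (0.336), Slc6a15, an amino acid transporter (0.360), Il17rc, a subunit of the interleukin-17 receptor (0.384), and a probe for another unnamed RNA on chromosome 1 (0.396). They differed by 2.05 to 2.66, and the order was less firm, since they ranked 5 to 46 on the scaled measure. On 4 of the 8 arrays the A230065H16Rik probe was not above background, so its values there have no firm order and these ranks are a description only. The members were not each other's nearest match. By the first measure, 1200009I06Rik ranked 57 for A230065H16Rik and A230065H16Rik ranked 7811 for 1200009I06Rik, a measure that counts unequal size as unlikeness. By the scaled measure they ranked 63 and 65.

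**Figure D4:**
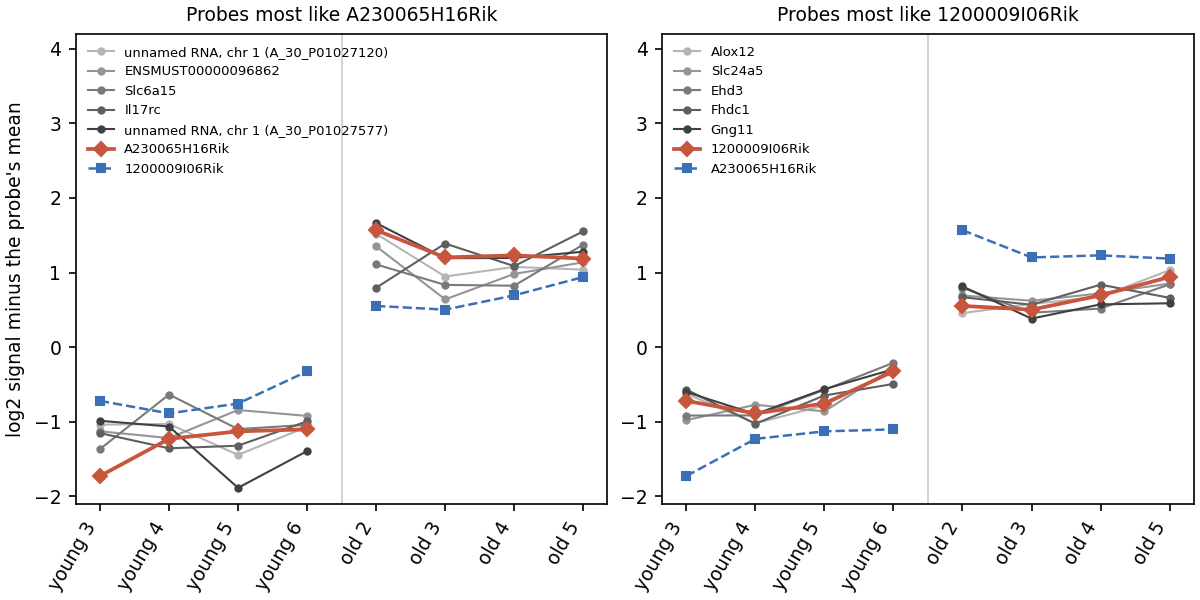
Log2 signal minus each probe's mean (y axis) on young arrays 3 to 6 and old arrays 2 to 5 (x axis) for each member (red) with the 5 most alike probes (grey) and the other member (blue, dashed); lines only link the values of a probe within an age. The 5 probes nearest to 1200009I06Rik, led by Alox12 (0.0803), run closer to it than those nearest to A230065H16Rik (0.302 for the first) run to that gene.

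The sorted population carried its defining transcripts on every array. All 8 CMP genes were well above background, among them the myeloid peroxidase Mpo, the brightest, which differed by -0.59. Of these genes 3 were above and 5 below 0, with a median difference of -0.09. Of the genes of the CMP sort, Kit differed by 0.31, Cd34 by -0.21, Fcgr3 by -0.47 and Ly6a (Sca-1) by -0.73. Ly6a, whose protein the sort excluded, was well above background on 4 young and 4 old arrays. Its ages did not overlap, as at 4.42% of all probes tested. Flt3 and Il7r, which the paper used to define lymphoid progenitors, were also read. Flt3 differed by -0.62, and Il7r was well above background on 1 young and 0 old arrays. The adjusted p of the 5 tested genes was between 0.414 and 0.998 by limma.

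The summed levels of several marker lists also lay apart between the ages. As background for the counts of each list, 15649 of all 33472 probes tested were above 0, and 0.158% were called higher. Of 15 megakaryocyte genes, all tested, 14 were above 0 with a median difference of 1.13 on the log2 scale, and Tubb1 (-0.25) was the exception. Of the 15, 1 passed the call, the platelet glycoprotein Gp9 (1.21, adjusted p of 0.033 by limma). Their summed level on a linear scale, relative to each array's 75th percentile, was 99.3 to 197 on young and 287 to 381 on old arrays, with Pf4 the brightest (1.36). In the same unit, the 8 of 9 HSC genes that were tested summed to 15.5 to 20.3 in young and 22.6 to 27.0 in old mice, and Meis1 was the brightest (0.65). Of these 8 HSC genes, 4 were above and 4 below 0, with a median of 0.11. The 7 granulocyte-monocyte genes, led by Ctsg (-0.42), were all below 0 with a median of -0.71 and summed to 523 to 752 in young and 426 to 515 in old mice.

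The other lists were less even. Of 4 endothelial genes tested, 3 were above 0, namely Esam (1.23), Emcn (0.96) and Tek (0.44), and none was called. Kdr, the brightest, differed by -0.05, and the defining gene Cdh5 was well above background on 0 young and 1 old arrays. Of 6 erythroid genes 3 were above 0 (Gata1, the brightest, by 0.73), with sums of 20.0 to 24.5 in young and 24.8 to 46.7 in old mice. Of 3 neutrophil genes 1 (S100a9, the brightest, differed by -0.17), and of 5 lymphoid genes 0 were (Cd79b, the brightest, differed by -0.12), with Ebf1 and Pax5 well above background on no array. The summed megakaryocyte, HSC and erythroid levels were higher on every old than on every young array, although the tested HSC and erythroid genes were split evenly above and below 0. The sums of the CMP genes (670 to 861 in young, 563 to 601 in old mice) and of the granulocyte-monocyte genes were lower on every old array. The CMP sum mostly follows Mpo, since 3 of these genes were above and 5 below 0. Mpo had a mean log2 level of 9.18 in young and 8.58 in old mice, beside 6.75 and 6.54 for Cd34, the next brightest. Likewise, the HSC sum mostly follows Meis1 (3.72 in young and 4.37 in old mice), beside 0.48 and 0.75 for Ctnnal1, the next brightest. Gata1 (3.81 and 4.54) makes up the largest part of the erythroid sum, beside 1.96 and 2.61 for Epor. The part of the cells marked by these lists in the result at A230065H16Rik and 1200009I06Rik was not tested.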

How the data were processed

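RNA of sorted CMPs from young and old mice was measured on 8 Agilent arrays of 1 colour, grouped by the sample labels. The authors scanned the arrays and read them with Feature Extraction 10.7.3.1. The deposited intensity of each spot is linear and corrected for background by that software, which also marks outliers, saturation and spots well above background. A second deposited table holds log2 values for the whole series, which the authors' methods describe as shifted to the 75th percentile, averaged over repeated probes and centred. Against the scanner values its columns correlated at 0.999 each, their medians lay between -0.11 and 0.15, and it was used as an alternative only. All its sample columns belong to these arrays.

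Intensities were taken to log2, and the 75th percentile over 59305 non-control spots of the same array was subtracted, with between 141 and 230 outlier spots per array left out and spots of a probe averaged. No spot was saturated. The 75th percentile was between 289.7 and 565.4, and between 55.6% and 63.2% of probes were well above background. A probe counted as well above background on an array if most of its spots did, and was tested if it did so on at least 4 of 8 arrays. The ages were compared by limma 3.58.1 in R 4.3.3, with lmFit, eBayes and Benjamini-Hochberg adjustment over 33472 probes, after the step had been tested on simulated data. Coordinates are those of mm9 in the array files, and promoters those of RefSeq.

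Named genes were the pair, all genes with a probe in the window, Tnfaip2 and its relatives, called members of the exocyst list, the 5 probes most like each member, the genes of the CMP sort with Flt3 and Il7r, and the brightest and any called gene of each marker list. Rab11a, BC048943, 5033406O09Rik and Stk30 were named after their values were seen. Tubb1, Esam, Emcn, Tek, Cdh5, Ebf1 and Pax5 are named outside this rule as well. The pair and all lists were chosen with earlier results of these data known. Alternatives were the background correction, the scaling, the series table, filters on dim probes, variance models, array weights, slide or replicate number as a block, the methods' t-test, outlier spots kept, each array left out, a wider window and another measure of likeness. Precision is limited by how many arrays there are and by how far a probe rises above background.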

Additional observations from a re-analysis of the deposited data

Results flagged for a closer look

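In each window probe and age, the gap between the highest or lowest array and its nearest neighbour was set against the whole range of the 4 arrays. Of 26 such groups, 2 had a share above the 95% critical value of Dixon's test, which chance passes in about 1 group in 20. At A230065H16Rik in old mice the share was 0.886, where old array 2 (-2.57 on the log2 scale) stood above the other old arrays (-2.95 to -2.91). At Amn in young mice it was 0.909, where young array 5 (-4.10) stood above the other young arrays (-4.40 to -4.37).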

How the results depend on the processing

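The difference at A230065H16Rik ranged from 0.95 to 2.71 on the log2 scale over 21 alternatives that gave a value (2.45 to 2.66 with each array left out). That at 1200009I06Rik ranged from 1.08 to 1.5 over 22 (1.26 to 1.46). Since the pair was chosen on this contrast and its groups did not overlap, the steady sign is no support. Both calls were lost with the replicate block and the methods' t-test after adjustment. That of 1200009I06Rik was also lost with no filter, with the slide as a block, and with any array but young array 6 left out. Under normexp correction, which adds an offset to dim signals, the values were 0.95 and 1.08, and the lower bound for A230065H16Rik fell to 1.83-fold. A definition of background chosen after seeing the data, by probes with every spot above it, gave a bound of 4.13-fold. The cause was not tested.

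None of the other window probes was called under any alternative that was run, with a median from -0.11 to 0.10. Gm10425 moved the most, from -1.0 with array weights to -0.07 with normexp correction (-0.98 to -0.28 with each array left out). Signs turned only at differences near 0. Traf3 was at 0.046 with the median shift and 0.021 with array weights, Amn at 0.14 with normexp correction, and the second Eif5 probe at -0.043 with normexp correction, -0.049 with quantile normalization and -0.063 with the replicate block. With each array left out, Traf3 ranged from -0.19 to 0.070, Cdc42bpb from -0.042 to 0.30, the second Tnfaip2 probe from -0.029 to 0.21, the first Eif5 probe from -0.045 to 0.37 and the second from -0.16 to 0.20. Only numbers 3, 4 and 5 occur in both ages, and the deviations of same-numbered arrays correlated at -0.09, -0.14 and 0.15. Arrays with unlike numbers were not compared, so this does not settle whether the numbers pair the arrays. With the replicate block, over these 6 arrays, the members differed by 2.57 and 1.5, the first Eif5 probe by -0.044, and 12 probes were called higher and 1 lower.

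Over all probes, 53 were called higher and 11 lower. Counts higher and lower were 82 and 22 with normexp correction, 26 and 2 with no filter, 33 and 7 with a filter on all 8 arrays, 201 and 101 with array weights, 35 and 4 with the slide as a block, 0 and 0 with the methods' t-test after adjustment and 645 and 406 without it. Counts lower were 3 with quantile normalization, 5 with the median shift, 6 with a filter on 2 of 8 arrays and 6 with the series table, and 85 were higher with an intensity trend. Leaving out each array gave 24 to 40 higher and 2 to 6 lower. Of the other exocyst family genes, 1 was called with normexp correction, 1 with array weights and 2 with the unadjusted t-test. The median over all probes moved to 0.10 under the median shift. Genes whose signal is near background, as A230065H16Rik in young mice, have only a bound.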
